A study of Mus musculus with 12 samples.

Results

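Hair follicle stem cells that had lost Foxc1 through an inducible Cre were compared between second telogen, the resting stage that follows the first adult growth phase, and anagen, the growing stage. The cells carried the Sox9CreER driver, are labelled FOXC1-Sox9CreER-iKO and are called inducible knockout (iKO) cells. Libraries were chosen by their labels: 2 of iKO cells in anagen at postnatal day 30 and 2 of iKO cells in second telogen at postnatal day 60, which makes 4 of the 12 libraries of the series. All 4 came from sorted cells of the back skin of male mice on a mixed Black Swiss and C57BL/6 background, with 1 mouse named for each library. These mice had been given tamoxifen by injection into the peritoneum, which moves Cre into the nucleus, deletes Foxc1 and turns on a YFP reporter. The labels give neither the day and dose of tamoxifen nor the surface markers of the sort. Stage, age and time since deletion cannot be told apart in this pair.

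The same stage difference was read, for reference, in cells that keep Foxc1. Its anagen side was 2 libraries of tamoxifen-treated Sox9CreER heterozygous (Het) males of the same background at day 30. Its telogen side was 2 wild-type (WT) Black Swiss mice, of which the male was taken at day 42 and the female at day 46. Strain, sex, age, driver and Foxc1 dose differ with stage there. Levels are also given for 2 second telogen libraries of a K14Cre conditional knockout (FOXC1-K14Cre-cKO, here cKO), with the same strain, sexes and ages as the WT mice. Shh-Het females, labelled Agouti and titled WT, were sampled in first telogen (day 23 or so) and in anagen substage II (day 26 or so), with 1 library for either stage.

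Hair follicles pass through growth, regression and rest, and their stem cells sit in the bulge, beside the club hair of the previous cycle. These cells divide briefly in early anagen and are quiescent for most of the cycle. BMP and FGF18 signals are known to hold them at rest, and WNT, SHH and BMP antagonists are known to accompany their activation. Foxc1 encodes a forkhead transcription factor that is known to restrain this activation.

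Expression was taken from the authors' deposited table as FPKM, a read count scaled to transcript length and library size. The table holds 1 pooled value per group, so neither the value of a library nor its depth is known, and the spread between mice enters only through the authors' test. Calls are those with a q-value below 0.05 in that table, and the words higher, lower, rose and fell are kept for called genes. Every log2 fold is second telogen over anagen, so a positive value is a larger level in second telogen. Its standard error (SE) is the log2 fold divided by the deposited test statistic, with a median of 0.31 over tested genes. The SE is approximate, since the deposited p does not always follow that statistic. Where a called gene is printed with its log2 fold and SE but no q, its q is 0.000444, the smallest in the table. Called genes given without an SE can have any q below 0.05. In bulk RNA, fewer cells of a type and less RNA per cell cannot be told apart.

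Foxc1 itself was low in both iKO groups. Its level was 1.32 FPKM in iKO anagen and 3.17 FPKM in iKO second telogen, against 22.5 in Het anagen, 27.5 in WT second telogen, 1.66 in the cKO, 42.6 in first telogen and 22.1 in anagen II. Both iKO values and the cKO value lie below all 4 values of groups that keep an intact copy. The gene was nevertheless called higher in iKO second telogen than in iKO anagen (log2 fold 1.26, SE 0.35, q = 0.00156). The labels do not say which part of the gene is deleted, and the source of the remaining reads was not tested. In the deposited mm9 coordinates the gene lies on chromosome 13, from 31898514 to 31902504.

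Of 23735 gene models, 13787 were tested between the iKO groups and 4572 were called (33.2%). Of these, 2433 were higher in second telogen (17.6%) and 2139 were lower (15.5%). The shares of 17.6% and 15.5% are the background for the counts of every gene list below. At least 2-fold calls numbered 1449 higher and 1020 lower, and 49 called genes were listed at 0 in one of the groups. The median log2 fold over tested genes that reached 1 FPKM in both groups was -0.01. The keratin gene Krt5 and Eef1a1 were among models marked as holding too many reads to test, and their listed values of 0 are not levels.

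**Figure D1:**
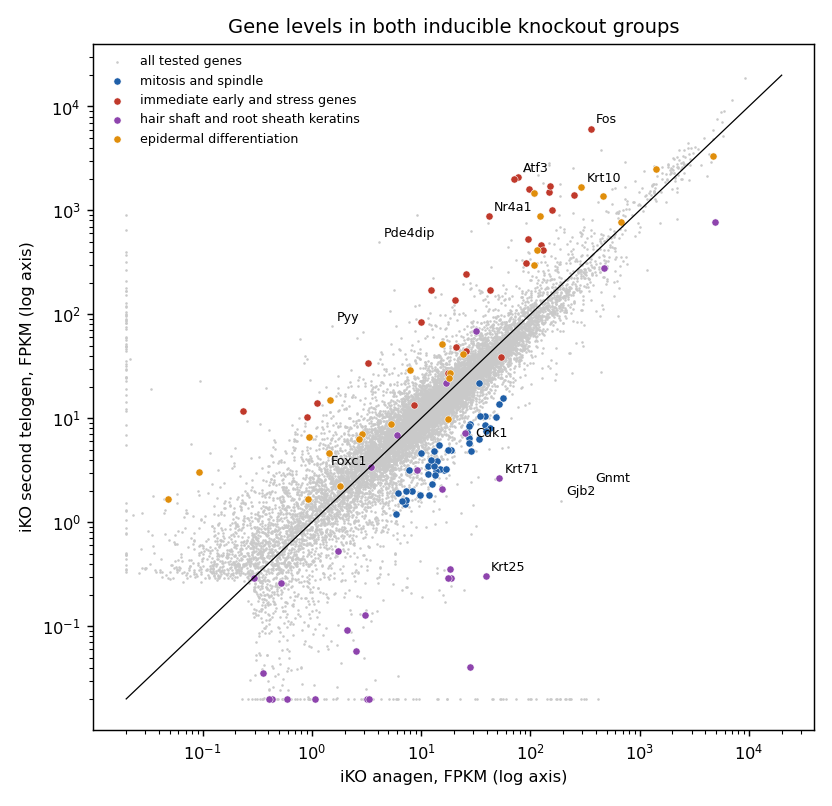
Level of each tested gene in iKO anagen (x axis, FPKM, log scale) against iKO second telogen (y axis, FPKM, log scale), with the line of equal levels. Values below 0.02 FPKM are drawn at 0.02; mitosis genes lie below the line, immediate early genes lie above it with 1 exception, and the labelled genes were picked after their values were seen.

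Genes of mitosis fell as a block. Of 42 tested genes of spindle, kinetochore and mitotic control, 42 were lower in second telogen and 0 were higher, with a median log2 ratio of -1.69 against 0.01 over all tested genes (both medians with 1 FPKM added). Cdk1, the kinase that drives entry into mitosis, fell from 27.7 to 5.84 FPKM (log2 fold -2.25, SE 0.29). Ccnb1, its cyclin partner, fell from 39 to 7.55 FPKM (log2 fold -2.37, SE 0.29). Spc25, a subunit of the kinetochore complex that holds microtubules, fell from 28.5 to 4.80 FPKM (log2 fold -2.57, SE 0.35). Each of the 3 was thus at least 4.75-fold lower in second telogen. Tpx2, which builds spindle microtubules, fell from 16.9 to 3.24 FPKM (log2 fold -2.38, SE 0.31). The proliferation marker Mki67 fell from 33.9 to 6.34 FPKM (log2 fold -2.42, SE 0.34).

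The level in resting iKO cells still lay above that of resting WT cells for most of these genes. Cdk1 stood at 5.84 FPKM in iKO second telogen, 1.14 in WT second telogen, 10.4 in the cKO and 2.62 in first telogen, and at 6.52 in Het anagen and 29.6 in anagen II. The 42 levels summed to 886 FPKM in iKO anagen, 234 in iKO second telogen, 256 in Het anagen and 68.8 in WT second telogen. In the direct test of both second telogen groups, 39 of the 42 genes were higher in iKO cells, where 7.01% of 13714 tested genes were higher and 5.88% were lower. That test shares the iKO second telogen libraries with the stage comparison. In the control pair, 38 of 42 genes fell from Het anagen to WT second telogen, and a per-gene test of the difference between both stage log2 folds (iKO minus control, two-sided normal test on the SEs, Benjamini-Hochberg adjusted p below 0.05) called 0 of the 42. Over all 13251 genes that this test could use, it called 171 (1.29%). The values for single genes are given as the difference, its SE and their ratio z. No p is printed for them, since each group rests on 2 pooled libraries and the normal test is an approximation.

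DNA replication genes fell as well. Of 44 tested genes of this list, 41 were lower and 0 were higher, with a median of -1.22. Mcm5, a subunit of the replicative helicase, fell from 40.5 to 6.92 FPKM (log2 fold -2.55, SE 0.29). Its partner Mcm2 fell from 34.2 to 6.86 FPKM (log2 fold -2.32, SE 0.29). Uhrf1, which keeps DNA methylation through replication, fell from 34.5 to 6.38 FPKM (log2 fold -2.43, SE 0.31). Tk1, which supplies thymidine nucleotides, fell from 48.5 to 10.01 FPKM (log2 fold -2.28, SE 0.29). The 3 genes not called also had smaller values in second telogen. For Pold1, the catalytic subunit of a replicative polymerase, the values were 10.8 FPKM in anagen and 7.85 FPKM in second telogen (log2 fold -0.46, SE 0.31, q = 0.106). Rfc4, of the clamp loader, had 23.6 FPKM in anagen and 16.5 FPKM in second telogen (log2 fold -0.52, SE 1.97, q = 0.831). Cyclin gene Ccne2 had 2.95 FPKM in anagen and 0.876 FPKM in second telogen (log2 fold -1.75, SE 1.22, q = 0.184).

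The promoters of these genes are shown because the letters of known cell cycle elements can be read in them. The CHR element (TTTGAA) and the CCAAT box (CCAAT) are known from promoters of G2 and mitosis genes, and the E2F site (TTTCCCGC or TTTGGCGC) from promoters of S phase genes. Windows ran from 250 bases before to 50 bases after the RefSeq start on build GRCm38.p6, and each motif was searched on both strands, which for the lower strand means its reverse complement. For each list, called members whose window holds the motif or pair of motifs were ranked by absolute test statistic, and the highest were printed. Members on a single chromosome were left out of this ranking. Where several windows of a gene held the motifs, the first by position was printed. Capitals mark only the matches of the motifs for which a window was chosen, CHR and CCAAT for Cdk1 and Spc25 and E2F for Mcm5 and Mcm3, and CCAAT letters in the Mcm5 and Mcm3 windows are left in lower case.
Cdk1: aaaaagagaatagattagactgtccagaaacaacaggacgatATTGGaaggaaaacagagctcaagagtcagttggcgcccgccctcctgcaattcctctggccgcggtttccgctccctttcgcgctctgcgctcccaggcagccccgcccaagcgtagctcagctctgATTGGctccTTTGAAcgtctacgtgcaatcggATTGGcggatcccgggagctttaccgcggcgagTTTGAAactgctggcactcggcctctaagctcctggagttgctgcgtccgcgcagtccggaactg
Spc25: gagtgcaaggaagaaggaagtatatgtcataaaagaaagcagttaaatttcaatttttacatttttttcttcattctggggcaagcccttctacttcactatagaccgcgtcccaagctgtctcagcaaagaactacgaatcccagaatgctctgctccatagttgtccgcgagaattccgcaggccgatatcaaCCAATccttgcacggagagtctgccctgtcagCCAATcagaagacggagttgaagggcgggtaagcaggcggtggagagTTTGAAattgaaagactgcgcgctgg
Mcm5: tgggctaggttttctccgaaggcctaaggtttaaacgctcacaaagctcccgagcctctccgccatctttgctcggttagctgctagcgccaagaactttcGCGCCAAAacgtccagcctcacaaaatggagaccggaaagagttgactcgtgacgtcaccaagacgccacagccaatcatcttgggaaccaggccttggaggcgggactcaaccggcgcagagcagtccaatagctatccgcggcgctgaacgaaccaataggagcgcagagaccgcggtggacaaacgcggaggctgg
Mcm3: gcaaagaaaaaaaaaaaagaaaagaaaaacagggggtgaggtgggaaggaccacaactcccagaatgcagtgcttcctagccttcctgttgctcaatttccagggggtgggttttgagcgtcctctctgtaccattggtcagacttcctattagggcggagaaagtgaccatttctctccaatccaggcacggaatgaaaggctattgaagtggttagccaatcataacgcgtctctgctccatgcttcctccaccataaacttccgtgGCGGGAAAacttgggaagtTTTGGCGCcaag
The Cdk1 window lies at chr10:69352863-69353162 (minus strand), that of Spc25 at chr2:69206164-69206463 (minus strand), that of Mcm5 at chr8:75109259-75109558 (plus strand) and that of Mcm3 at chr1:20820263-20820562 (minus strand), each printed along its gene's own strand. The CHR matches of Cdk1 begin at positions -71 and -15 from the start, and its CCAAT matches at -208, -80 and -48. None of the letter strings searched contains another. A CHR match was found in 27 of 37 windows of the mitosis list (73.0%), against 12% of windows of tested genes and 17.9% of all 32851 windows. Both a CHR and a CCAAT match were held by 22 of the 37 (59.5%), against 4.93% of windows of tested genes. An E2F match was found in 13 of 44 windows of the replication list (29.5%), against 2.70% of windows of tested genes, and in 0 of the 37 mitosis windows. A CCAAT match was also found in 26 of the 44 replication windows (59.1%), against 37.4% of windows of tested genes. All genes called lower had a CHR match in 14.5% of windows and all genes called higher in 11.1%. A match is a description of the letters in these windows and not a measured site.

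The regulators of G1 moved in both directions. Of 17 tested G1 cyclins, kinases and inhibitors, 3 were higher and 5 were lower. Cdkn1a, which encodes the inhibitor p21, rose from 43.4 to 285 FPKM (log2 fold 2.71, SE 0.31). Cdkn1c, the gene of p57, rose from 0.662 to 2.86 FPKM (log2 fold 2.11, SE 0.58). Cdkn2b, the gene of p15, rose from 1.71 to 3.98 FPKM (log2 fold 1.22, SE 0.44, q = 0.00783). The 3 genes higher in second telogen were thus all inhibitors of cyclin-dependent kinases. Cyclin D1 (Ccnd1) fell from 99.7 to 34.4 FPKM (log2 fold -1.53, SE 0.28). Cyclin D2 (Ccnd2) fell from 72.9 to 23.2 FPKM (log2 fold -1.65, SE 0.28). Their kinase partner Cdk4 fell from 213 to 91.7 FPKM (log2 fold -1.22, SE 0.25). The inhibitor gene Cdkn2c and the pocket protein gene Rbl1 were lower too. Cdkn1b, the gene of p27, stood at 76.2 FPKM in anagen and 69.2 FPKM in second telogen (log2 fold -0.14, SE 0.25, q = 0.673).

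Bulge stem cell markers were mostly higher in second telogen. Of 22 tested markers, 12 were higher and 1 was lower, with a median of 0.77. Cd34, the surface marker by which mouse bulge cells are commonly sorted, rose from 230.1 to 513 FPKM (log2 fold 1.16, SE 0.36). Krt24, a keratin of the resting bulge, rose from 91.5 to 763 FPKM (log2 fold 3.06, SE 0.32). The surface glycoprotein gene Cd200 rose from 20.1 to 101 FPKM (log2 fold 2.32, SE 0.27). Aspn, which encodes the proteoglycan asporin, showed the largest change of the list and rose from 2.47 to 94 FPKM (log2 fold 5.25, SE 0.43). Postn, the gene of the matrix protein periostin, rose from 187 to 1382 FPKM (log2 fold 2.89, SE 0.50). All 5 had their larger value in telogen in the control pair as well. Npnt, which encodes the basement membrane ligand nephronectin, was the 1 gene that fell, from 85.8 to 46.5 FPKM (log2 fold -0.88, SE 0.30).

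Keratins of bulge and basal cells were abundant in both groups. Krt15, the classical bulge keratin, stood at 5685 FPKM in anagen and 7019.7 FPKM in second telogen (log2 fold 0.30, SE 1.13, q = 0.842). Krt14, a keratin of basal cells, had 4351 FPKM in anagen and 3526 FPKM in second telogen (log2 fold -0.30, SE 0.79, q = 0.764). These levels do not by themselves identify bulge cells or give the purity of the sort. Krt15 is listed at 0 in Het anagen, WT second telogen and the cKO, where its value is not used. The stem cell receptor gene Lgr5 had 54.2 FPKM in anagen and 76.3 FPKM in second telogen (log2 fold 0.49, SE 0.28, q = 0.0693). The quiescence ligand gene Fgf18 had 6.11 FPKM in anagen and 7.61 FPKM in second telogen (log2 fold 0.32, SE 0.39, q = 0.434), whereas its value was 13.1 FPKM in Het anagen and 45.6 FPKM in WT second telogen. Second telogen iKO cells were lower than WT second telogen cells for Fgf18 (log2 fold -2.58), but its stage difference was not called different between iKO and control cells (difference over its SE, z = -2.97).

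Transcription factors of the bulge changed less uniformly. Of 20 tested, 8 were higher, 2 were lower and 10 were not called, with a median of 0.43. Nfatc1, a calcium-regulated factor tied to stem cell quiescence, rose from 26.6 to 57.4 FPKM (log2 fold 1.11, SE 0.30). Klf5 rose from 3.54 to 19.4 FPKM (log2 fold 2.45, SE 0.33). Gata3, also a factor of the inner root sheath, rose from 14.7 to 41 FPKM (log2 fold 1.47, SE 0.25). The count of 8 includes Foxc1 itself. Zfp36l1, which encodes an RNA decay factor, rose from 84.7 to 331 FPKM (log2 fold 1.97, SE 0.30). The 2 lower genes were Id4, from 174 to 47.6 FPKM (log2 fold -1.87, SE 0.29), and Tbx1, from 236 to 152 FPKM (log2 fold -0.63, SE 0.33, q = 0.0185). Sox9, whose promoter drives the Cre, had 71.4 FPKM in anagen and 59.5 FPKM in second telogen (log2 fold -0.26, SE 0.26, q = 0.382). Lhx2 had 152 FPKM in anagen and 214 FPKM in second telogen (log2 fold 0.49, SE 0.32, q = 0.0798). Trp63, the master factor of stratified epithelia, had 283 FPKM in anagen and 255 FPKM in second telogen (log2 fold -0.15, SE 0.39, q = 0.755).

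BMP signalling genes changed at several levels of the pathway. Among 7 tested genes of the ligand list, which includes the protease gene Bmp1, 4 were higher and 2 were lower. Bmp2 rose from 1.51 to 14.6 FPKM (log2 fold 3.27, SE 0.35), and it stood at 14.7 FPKM in WT second telogen, 14.6 in the cKO and 16.2 in first telogen. All 4 telogen groups thus held between 14.6 and 16.2 FPKM of Bmp2, and the 3 anagen groups held 4.26 FPKM or less. Bmp4 rose from 0.969 to 2.58 FPKM (log2 fold 1.41, SE 0.54, q = 0.00434). Bmp7 and Bmp3 were higher as well. Gdf10, a ligand of the same superfamily, fell from 11 to 0.910 FPKM (log2 fold -3.60, SE 0.43). Bmp1, a protease that processes procollagen, fell from 32.2 to 12 FPKM (log2 fold -1.43, SE 0.29). Bmp6, known as a quiescence signal of the inner bulge layer, had 1.68 FPKM in anagen and 2.64 FPKM in second telogen (log2 fold 0.65, SE 0.41, q = 0.14).

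Antagonists of BMP moved in both directions. Of 12 tested antagonists and modulators, 5 were higher, 2 were lower and 5 were not called. Their summed level was 1056 FPKM in anagen and 996 in second telogen. Noggin (Nog), which binds BMP ligands, rose from 5.55 to 41.3 FPKM (log2 fold 2.89, SE 0.29). Follistatin (Fst) rose from 40.8 to 133 FPKM (log2 fold 1.70, SE 0.27). Nbl1 rose from 85.8 to 263 FPKM (log2 fold 1.62, SE 0.27). Bambi, a decoy receptor, rose from 1.97 to 6.32 FPKM (log2 fold 1.68, SE 0.32). The fifth gene was Grem1, which was outside the rule for named genes, with a log2 fold of 1.35. Sostdc1, a secreted inhibitor of BMP and WNT, fell from 652 to 181 FPKM (log2 fold -1.85, SE 0.29). Fstl1 fell from 44 to 22.2 FPKM (log2 fold -0.99, SE 0.27). Nog was more positive in iKO than in control cells, by 1.41 (SE 0.38, z = 3.67).

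The BMP targets Id1, Id2 and Id3 rose. Id1 rose from 98.3 to 393 FPKM (log2 fold 2.0, SE 0.22). Id2 rose from 163 to 472 FPKM (log2 fold 1.53, SE 0.26). Id3 rose from 186 to 697 FPKM (log2 fold 1.90, SE 0.23). Id4 was the exception of this family and fell, as given above. Of 14 tested receptors, Smads and targets, 5 were higher and 1, Id4, was lower. The other higher genes were Smad9, with a log2 fold of 1.44, and the receptor gene Acvrl1, with 0.94 and chosen after its values were seen. The type I receptor gene Bmpr1a had 57.7 FPKM in anagen and 40.8 FPKM in second telogen (log2 fold -0.50, SE 0.28, q = 0.0597). For Id2 the stage difference was more positive in iKO than in control cells by 1.38 (SE 0.37, z = 3.77). For Id3 it was more positive by 1.20 (SE 0.33, z = 3.69).

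**Figure D2:**
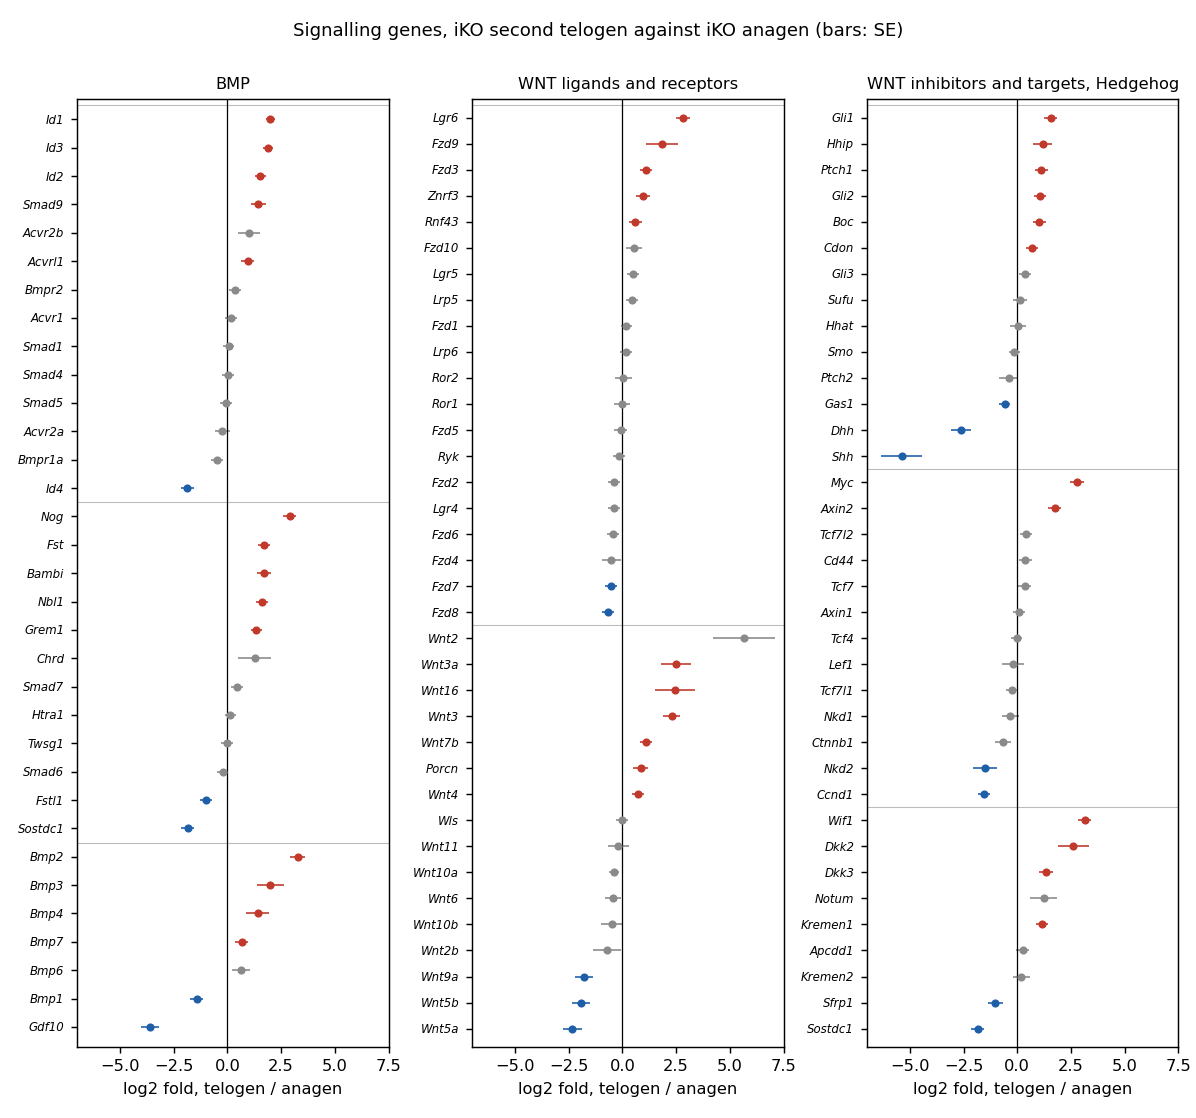
Log2 fold of second telogen over anagen (x axis) with its SE as a bar for tested genes of the BMP, WNT and Hedgehog lists; red points were called higher, blue points lower and grey points were not called. Id1, Id2 and Id3 lie at 1.53 or above, and Shh lies at -5.39.

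WNT genes moved in both directions. Of 16 tested ligands and ligand-processing genes, 6 were higher and 3 were lower, and the median was -0.06. Wnt3 rose from 1.29 to 6.32 FPKM (log2 fold 2.29, SE 0.39). Wnt7b rose from 7.05 to 15.2 FPKM (log2 fold 1.11, SE 0.28). Wnt3a and Wnt16 were higher from levels under 1 FPKM in both groups. Wnt5b, a ligand of noncanonical signalling, fell from 33.2 to 8.74 FPKM (log2 fold -1.92, SE 0.40). Wnt5a fell from 4.46 to 0.892 FPKM (log2 fold -2.32, SE 0.44), and Wnt9a fell from 3.29 to 0.956 FPKM (log2 fold -1.79, SE 0.42). Wnt10a, a ligand known from hair follicle development, had 32.8 FPKM in anagen and 25 FPKM in second telogen (log2 fold -0.39, SE 0.24, q = 0.154).

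Of 20 WNT receptors and their modulators, 5 were higher and 2 were lower, against 17.6% and 15.5% of all tested genes. Lgr6, an R-spondin receptor of the upper follicle, rose from 2.37 to 16.8 FPKM (log2 fold 2.82, SE 0.32). The frizzled gene Fzd3 rose from 7.56 to 16.3 FPKM (log2 fold 1.11, SE 0.27). Znrf3, which removes frizzled receptors from the membrane and is itself a WNT target, rose from 2.36 to 4.61 FPKM (log2 fold 0.97, SE 0.32). Fzd9 was higher, at 0.139 and 0.495 FPKM, but stood at 5.16 FPKM in Het anagen and 7.73 FPKM in WT second telogen. The fifth, Rnf43, is a relative of Znrf3 that was chosen after its values were seen and had a log2 fold of 0.61. Fzd7 fell from 82.8 to 57.3 FPKM (log2 fold -0.53, SE 0.26, q = 0.0445). Fzd8 fell from 6.57 to 4.15 FPKM (log2 fold -0.66, SE 0.29, q = 0.0323).

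The list of secreted WNT inhibitors also split, and it holds Kremen1, which encodes a membrane receptor of DKK proteins. Of 9 tested, 4 were higher and 2 were lower. Wif1, which binds WNT ligands, rose from 4.22 to 37.2 FPKM (log2 fold 3.14, SE 0.30), and stood at 15.3 FPKM in WT second telogen and 170.3 FPKM in the cKO. Its stage difference was more positive in iKO than in control cells by 1.58 (SE 0.43, z = 3.71). Dkk3 rose from 126 to 318 FPKM (log2 fold 1.34, SE 0.33). Kremen1 rose from 12.7 to 28.5 FPKM (log2 fold 1.17, SE 0.28). Dkk2 was higher from 0.113 to 0.689 FPKM. Sfrp1 fell from 301 to 149 FPKM (log2 fold -1.02, SE 0.35, q = 0.00156). Sostdc1 was the other gene that fell.

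Of 13 tested TCF factors and WNT targets, 2 were higher and 2 were lower, near the background of 17.6% and 15.5%. Axin2, a feedback target of canonical WNT signalling, rose from 3.73 to 12.5 FPKM (log2 fold 1.74, SE 0.31). Myc rose from 20.3 to 139 FPKM (log2 fold 2.78, SE 0.31). Ccnd1 and Nkd2 were lower. Lef1, the factor of hair matrix and precortex cells, had 1.51 FPKM in anagen and 1.31 FPKM in second telogen (log2 fold -0.21, SE 0.52, q = 0.736). The gene of beta-catenin, Ctnnb1, had 461 FPKM in anagen and 289 FPKM in second telogen (log2 fold -0.67, SE 0.37, q = 0.0576).

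Within the Hedgehog pathway, ligands and response genes went opposite ways. Shh, the ligand of the growing follicle's matrix, fell from 1.86 to 0.0444 FPKM (log2 fold -5.39, SE 0.95, q = 0.0254). The ligand gene Dhh fell from 3.0 to 0.489 FPKM (log2 fold -2.62, SE 0.48). Gli1, a transcription factor and standard response gene, rose from 8.69 to 25.5 FPKM (log2 fold 1.55, SE 0.30). Ptch1, the receptor and a response gene, rose from 4.07 to 8.84 FPKM (log2 fold 1.12, SE 0.30). Gli2 rose from 5.24 to 10.9 FPKM (log2 fold 1.06, SE 0.29). Boc, a coreceptor gene, rose from 39.1 to 79.1 FPKM (log2 fold 1.02, SE 0.30). In all, 6 of 14 tested genes were higher and 3 were lower, the other 2 higher genes being Hhip and Cdon and the remaining lower one Gas1. Hhip was named by the rule and Cdon was chosen after its values were seen. Smo, the signal transducer, had 45.4 FPKM in anagen and 41.1 FPKM in second telogen (log2 fold -0.14, SE 0.26, q = 0.656). Gli1 stood at 13.5 FPKM in Het anagen, 16.7 in WT second telogen, 27.2 in the cKO, 37.8 in first telogen and 55.7 in anagen II, so its largest value was in an anagen group.

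EGF family and ERK feedback genes gave more higher than lower calls. Of 12 tested FGF ligands, receptors and binding proteins, 3 were higher and 1 was lower, with a median of 0.12. These counts are near the background of 17.6% higher and 15.5% lower over all tested genes. Fgf1 rose from 4.76 to 29.9 FPKM (log2 fold 2.65, SE 0.30). The receptor gene Fgfr1 rose from 64.4 to 142 FPKM (log2 fold 1.14, SE 0.30), and Fgfbp1 rose from 43.5 to 77.5 FPKM (log2 fold 0.83, SE 0.29). Fgf21 was the lower gene, at 1.01 and 0.141 FPKM. Among 13 tested genes of ERK feedback, 6 were higher and 1, Etv4, was lower. Spry1, an inhibitor of receptor tyrosine kinase signalling, rose from 9.14 to 38.5 FPKM (log2 fold 2.08, SE 0.27). Dusp6, a phosphatase of ERK, rose from 38.9 to 98.8 FPKM (log2 fold 1.35, SE 0.26). Errfi1, an inhibitor of the EGF receptor, rose from 19.95 to 110.5 FPKM (log2 fold 2.47, SE 0.28). Of 14 tested EGF family genes, 8 were higher and 2 were lower. Ereg, the gene of epiregulin, rose from 0.138 to 3.20 FPKM (log2 fold 4.54, SE 0.57). Areg, the gene of amphiregulin, rose from 1.99 to 14.7 FPKM (log2 fold 2.88, SE 0.41). Nrg1 fell from 5.03 to 0.868 FPKM (log2 fold -2.54, SE 0.46). Lrig1, a negative regulator of EGF receptors, fell from 65.6 to 26.7 FPKM (log2 fold -1.30, SE 0.30).

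TGF-beta, insulin-like and Notch genes gave more higher than lower calls. For TGF-beta and activin, 11 of 20 tested genes were higher and 1 was lower, with a median of 0.56. Tgfb2, known to promote entry into a new cycle, rose from 0.684 to 4.22 FPKM (log2 fold 2.63, SE 0.41). Cyr61, a matricellular protein gene and YAP target, rose from 131 to 1842 FPKM (log2 fold 3.81, SE 0.43). Ctgf, of the same family, rose from 41.3 to 763 FPKM (log2 fold 4.21, SE 0.33). Inhbb, the gene of the activin B subunit, fell from 40.5 to 10.5 FPKM (log2 fold -1.96, SE 0.26). Of 11 tested insulin-like genes, 5 were higher and 1, Igfbp2, was lower. Irs2, an adaptor of insulin signalling, rose from 4.32 to 22.6 FPKM (log2 fold 2.39, SE 0.28). Irs1 rose from 2.19 to 7.94 FPKM (log2 fold 1.86, SE 0.29). Of 14 tested Notch genes, 5 were higher and 1, Heyl, was lower. Hes1, a Notch target, rose from 47.8 to 151 FPKM (log2 fold 1.66, SE 0.23). Notch2 rose from 3.23 to 7.58 FPKM (log2 fold 1.23, SE 0.29). Notch3, Numb and Rbpj were the others, Rbpj being chosen after its values were seen.

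Immediate early genes were the list with the largest median. These genes answer within minutes to growth factors, stress and handling of cells. Of 28 tested, 27 were higher and 0 were lower in second telogen, with a median of 2.78. Fos rose from 357 to 6112 FPKM (log2 fold 4.10, SE 0.91, q = 0.00121). Atf3, a stress factor, rose from 76.9 to 2077 FPKM (log2 fold 4.76, SE 0.51). Zfp36, which promotes decay of cytokine mRNAs, rose from 97.3 to 1606 FPKM (log2 fold 4.04, SE 0.34). The orphan nuclear receptor gene Nr4a1 rose from 41.7 to 885 FPKM (log2 fold 4.41, SE 0.34). Ppp1r15a, which restores translation after stress, rose from 12.2 to 170.5 FPKM (log2 fold 3.80, SE 0.30). The gene not called was Gadd45b, with 54 FPKM in anagen and 39 FPKM in second telogen (log2 fold -0.47, SE 0.24, q = 0.0727).

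All 4 telogen groups held more of these transcripts than all 3 anagen groups. The 28 levels summed to 22584 FPKM in iKO second telogen, 18058 in WT second telogen, 7454 in the cKO and 15561 in first telogen. The anagen sums were 2149 in iKO cells, 2721 in Het cells and 2147 in anagen II. Fos alone had 6112, 4023, 1817 and 2728 FPKM in the telogen groups, in the same order, and 357, 474 and 237 FPKM in the anagen groups. In the control pair, 25 of 28 genes were higher in telogen and 0 were lower. Nr4a1 alone of the 28 differed between iKO and control cells, being more positive in iKO cells by 1.56 (SE 0.45, z = 3.47).

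The CArG box, to which serum response factor binds, and the CRE (TGACGTCA), to which CREB and ATF factors bind, are known elements of immediate early promoters. A window of each kind is shown for that reason, with the matches of that element alone in capitals.
Zfp36: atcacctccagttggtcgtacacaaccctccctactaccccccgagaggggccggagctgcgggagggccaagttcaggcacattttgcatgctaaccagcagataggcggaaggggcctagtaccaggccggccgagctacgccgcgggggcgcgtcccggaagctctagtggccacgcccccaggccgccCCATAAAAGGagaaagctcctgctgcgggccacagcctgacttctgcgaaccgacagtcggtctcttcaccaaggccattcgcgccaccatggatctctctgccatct
Ppp1r15a: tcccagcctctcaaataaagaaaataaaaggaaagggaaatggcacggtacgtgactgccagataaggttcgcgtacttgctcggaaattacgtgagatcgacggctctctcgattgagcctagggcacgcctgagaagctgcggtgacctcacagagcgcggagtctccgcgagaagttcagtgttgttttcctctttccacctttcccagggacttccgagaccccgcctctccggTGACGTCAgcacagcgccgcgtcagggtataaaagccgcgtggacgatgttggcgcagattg
The Zfp36 window lies at chr7:28379179-28379478 (minus strand) and the Ppp1r15a window at chr7:45526219-45526518 (minus strand), both printed along the gene's strand. The CArG match of Zfp36 begins at position -58 and the CRE match of Ppp1r15a at -12. A CArG match was held by 5 of 29 windows of the immediate early list (17.2%) and by 1.28% of windows of tested genes. A CRE match was held by 4 of 29 (13.8%) and by 3.08%. All genes called higher had a CArG match in 1.41% of windows and a CRE match in 2.65%.

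Clock genes and glucocorticoid-responsive genes were higher in second telogen. Of 19 tested clock genes, 10 were higher and 0 were lower, with a median of 0.78. Per1, a repressor of the clock that glucocorticoids also induce, rose from 5.26 to 51.5 FPKM (log2 fold 3.29, SE 0.31). Nr1d2, a nuclear receptor of the clock, rose from 3.08 to 21.7 FPKM (log2 fold 2.82, SE 0.30). Tef rose from 8.23 to 50.5 FPKM (log2 fold 2.62, SE 0.30). Bhlhe40 rose from 12.9 to 60.9 FPKM (log2 fold 2.24, SE 0.29). Clock, the activator, had 13.5 FPKM in anagen and 12.7 FPKM in second telogen (log2 fold -0.09, SE 0.27, q = 0.787). Per1 stood at 41.5 FPKM in WT second telogen and 52.4 in first telogen, and at 6.42 in Het anagen and 33.2 in anagen II. The hour of tissue collection is not given in the labels. An E-box (CACGTG), the element of CLOCK and MYC proteins, was found in 6 of 21 windows of clock genes (28.6%), against 9.70% of windows of tested genes. The Per1 window, at chr11:69098699-69098998 (plus strand), holds 1 match, in capitals, that begins at position -166.
Per1: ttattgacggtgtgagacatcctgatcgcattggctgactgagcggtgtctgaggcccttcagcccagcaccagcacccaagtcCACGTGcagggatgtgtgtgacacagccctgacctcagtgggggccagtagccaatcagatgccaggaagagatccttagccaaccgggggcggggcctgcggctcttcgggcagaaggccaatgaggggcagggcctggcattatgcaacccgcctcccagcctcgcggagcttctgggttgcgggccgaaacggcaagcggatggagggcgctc

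Of 24 tested nuclear receptor and glucocorticoid-induced genes, 13 were higher and 1, Rarb, was lower. Zbtb16, a zinc finger factor strongly induced by glucocorticoids, rose from 0.865 to 40.2 FPKM (log2 fold 5.54, SE 0.40). Tsc22d3, which encodes the glucocorticoid-induced leucine zipper, rose from 13 to 224 FPKM (log2 fold 4.11, SE 0.35). Klf9, another glucocorticoid target, rose from 4.38 to 41.5 FPKM (log2 fold 3.25, SE 0.30). These 3, and Fkbp5, which binds the receptor's chaperone complex and was chosen after its values were seen, were the 4 of 24 genes whose stage difference was more positive in iKO than in control cells. The difference was 2.85 (SE 0.45, z = 6.35) for Tsc22d3, 2.01 (SE 0.53, z = 3.79) for Zbtb16, 1.62 (SE 0.42, z = 3.87) for Klf9 and 2.16 (SE 0.53, z = 4.04) for Fkbp5. Tsc22d3 stood at 224 FPKM in iKO second telogen and at 54.3, 37.3 and 96.1 FPKM in WT, cKO and first telogen cells.

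Calcium and NFAT genes gave 10 higher and 2 lower calls among 23 tested. Stim1, the calcium sensor of the endoplasmic reticulum, rose from 41.1 to 81.5 FPKM (log2 fold 0.99, SE 0.27). Itpr2, a calcium release channel, rose from 5.22 to 12.4 FPKM (log2 fold 1.25, SE 0.28). The pump gene Atp2a2 fell from 94.4 to 49.98 FPKM (log2 fold -0.92, SE 0.30). Rcan1, a target and inhibitor of calcineurin, had 60.8 FPKM in anagen and 68.3 FPKM in second telogen (log2 fold 0.17, SE 0.28, q = 0.59).

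Hair keratins fell and epidermal differentiation genes rose. Of 28 tested genes of the hair shaft and root sheath, 18 were lower and 1, the metallothionein gene Mt4, was higher, with a median of -1.40. Krt25, an inner root sheath keratin, fell from 38.9 to 0.302 FPKM (log2 fold -7.01, SE 0.59). Krt28 fell from 17.7 to 0.292 FPKM (log2 fold -5.92, SE 0.60). Krt73 fell from 18.5 to 0.356 FPKM (log2 fold -5.70, SE 0.56). These 3 and Krt71, from 51.9 to 2.65 FPKM (log2 fold -4.29, SE 0.35), are all inner root sheath keratins. Krt71 fell less in iKO than in control cells, with a difference of 2.24 (SE 0.58, z = 3.86). Krt17, a keratin of the outer root sheath and of activated keratinocytes, fell from 4904 to 768 FPKM (log2 fold -2.68, SE 0.69, q = 0.000839). The precortex keratin Krt35 had 27.8 FPKM in anagen and 0.0409 FPKM in second telogen (log2 fold -9.41, SE 1.15, q = 0.0791). The 30 levels summed to 5674 FPKM in anagen and 1167 FPKM in second telogen, with Krt33b, Krt36, Krt72 and Padi3 listed at 0 in second telogen.

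Of 25 tested genes of epidermal differentiation, 19 were higher and 1 was lower, with a median of 1.21. Krt77, a suprabasal keratin, rose from 123 to 893 FPKM (log2 fold 2.86, SE 0.36). Krt78 rose from 1.46 to 14.9 FPKM (log2 fold 3.35, SE 0.40). Krtdap, a secreted protein of differentiating keratinocytes, rose from 466 to 1366 FPKM (log2 fold 1.55, SE 0.17). Flg2, of the cornified envelope, rose from 0.942 to 6.69 FPKM (log2 fold 2.83, SE 0.37). Krt10, the main suprabasal keratin and chosen after its values were seen, rose from 292 to 1669 FPKM (log2 fold 2.52, SE 0.47). Casp14, a caspase of cornification, was the 1 gene that fell, from 17.5 to 9.85 FPKM (log2 fold -0.83, SE 0.29, q = 0.0019). The summed level of these 27 genes was 8139 FPKM in iKO anagen and 12979 FPKM in iKO second telogen, against 7398 and 13662 FPKM in Het anagen and WT second telogen. Whether suprabasal cells in the sort take part was not tested.

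Loricrin (Lor) rose from 7.90 to 28.9 FPKM (log2 fold 1.87, SE 0.25), less than in control cells, where it went from 7.86 to 129.6 FPKM. The difference was -2.17 (SE 0.36, z = -6.04). Lce1m, of the late cornified envelope, had 4.95 FPKM in anagen and 8.64 FPKM in second telogen (log2 fold 0.80, SE 0.39, q = 0.103) in iKO cells and went from 2.38 to 63.5 FPKM in control cells, a difference of -3.93 (SE 0.56, z = -7.07).

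Markers of the junctional zone and sebaceous gland were higher in second telogen for 13 of 18 tested genes and lower for 1, Lrig1. Mgst1, an enzyme of sebocytes, rose from 50.2 to 154 FPKM (log2 fold 1.62, SE 0.21). Dgat2, which completes triglyceride synthesis, rose from 8.73 to 35.7 FPKM (log2 fold 2.03, SE 0.27). Elovl3, a fatty acid elongase of the gland, rose from 2.63 to 9.69 FPKM (log2 fold 1.88, SE 0.42). Gata6, a factor of the junctional zone and sebaceous duct, rose from 0.348 to 3.31 FPKM (log2 fold 3.25, SE 0.55). The median was 1.04 in iKO cells and 0.23 in the control pair, where 4 of 16 tested genes were higher and 3 were lower. In the difference test 3 of 16 genes differed, namely Krt79, Soat1 and Defb6, each more positive in iKO cells, of which Krt79 and Soat1 were chosen after their values were seen.

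Cell junction genes gave calls in both directions. Of 23 tested genes of adherens junctions and desmosomes, 3 were higher and 4 were lower. Such counts are near the background of 17.6% higher and 15.5% lower over all tested genes. E-cadherin (Cdh1), the adhesion receptor of epithelia, had 124 FPKM in anagen and 137 FPKM in second telogen (log2 fold 0.15, SE 0.32, q = 0.699). Dsc1, a desmosomal cadherin of upper layers, rose from 6.36 to 17.7 FPKM (log2 fold 1.48, SE 0.28). Jup and Pvrl2 were the other higher genes. Dsg2, a desmosomal cadherin of basal and follicle cells, fell from 23.9 to 11.7 FPKM (log2 fold -1.02, SE 0.28). Vcl, the gene of vinculin, fell from 54.7 to 28.7 FPKM (log2 fold -0.93, SE 0.29). Dsc2 and Dsg4 were lower too. Among 21 tested genes of tight and gap junctions, 6 were higher and 4 were lower, of which 3 are described. Gjb2, the gene of connexin 26, fell from 190.5 to 1.61 FPKM (log2 fold -6.89, SE 0.38), the second largest fall over genes that reached 1 FPKM in both groups. Gjb6, the gene of connexin 30, fell from 13.3 to 0.957 FPKM (log2 fold -3.80, SE 0.49). Gja1, the gene of connexin 43, fell from 638 to 97.5 FPKM (log2 fold -2.71, SE 0.34). All 3 are gap junction genes. Cldn4, a claudin, rose from 5.54 to 14.6 FPKM (log2 fold 1.39, SE 0.30), and Ocln, the gene of occludin, rose from 2.38 to 6.84 FPKM (log2 fold 1.53, SE 0.34).

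**Figure D3:**
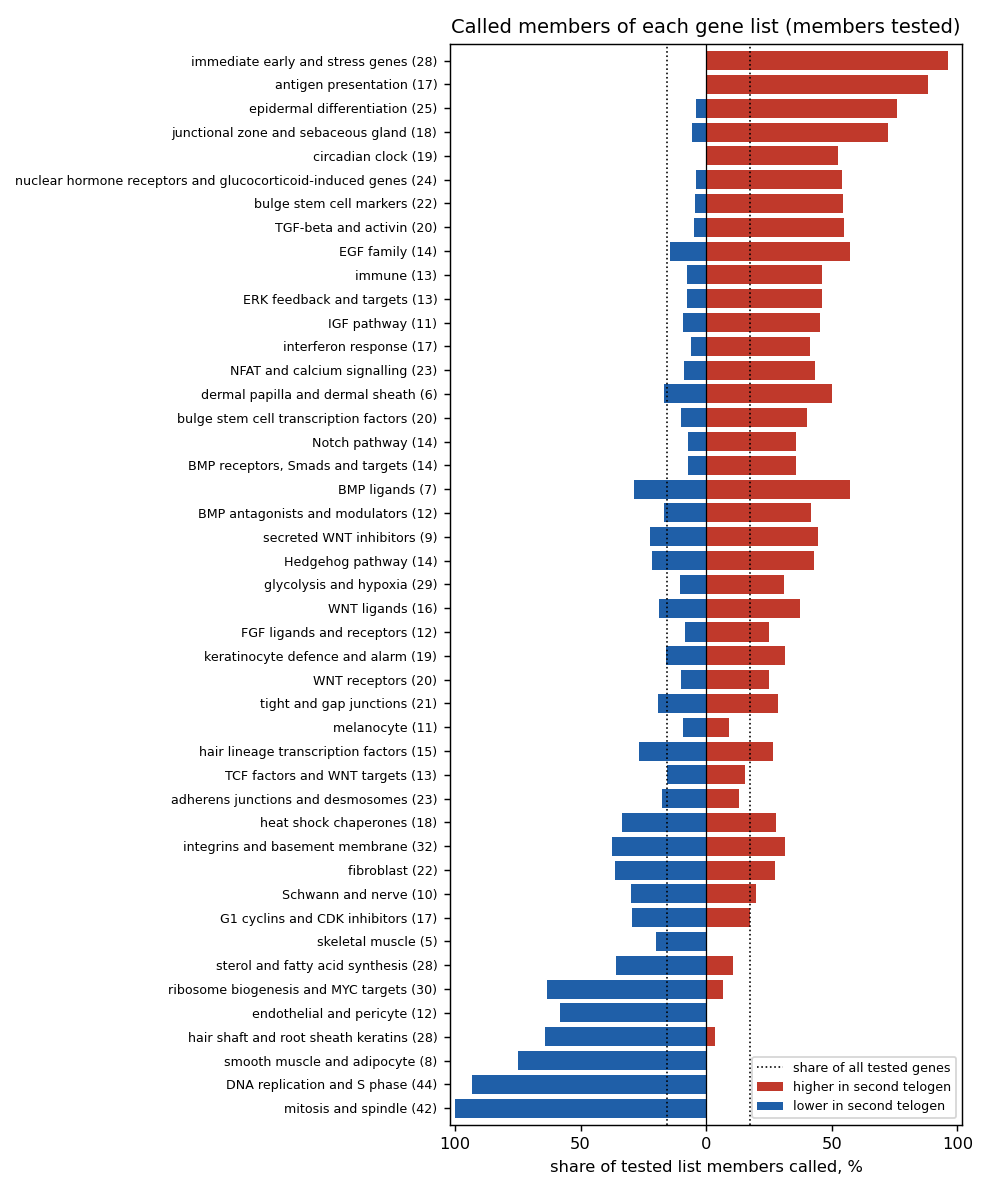
Share of tested members called higher (right, red) or lower (left, blue) in second telogen for the 45 lists with at least 5 tested members, as a percentage (x axis), ordered by the difference; dotted lines mark the shares over all tested genes. The mitosis list reaches 100% lower, and 27 of 28 immediate early genes are higher.

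Integrin and basement membrane genes moved in both directions. Of 32 tested, 10 were higher and 12 were lower. Col4a1, a collagen chain of basement membranes, fell from 67.2 to 10.2 FPKM (log2 fold -2.72, SE 0.32). Its partner Col4a2 fell from 49.5 to 11 FPKM (log2 fold -2.17, SE 0.31). Tenascin C (Tnc) fell from 173 to 26.8 FPKM (log2 fold -2.69, SE 0.36). The laminin gene Lamb1 fell from 29.2 to 5.56 FPKM (log2 fold -2.39, SE 0.29). Lama1 rose from 0.0591 to 0.834 FPKM (log2 fold 3.82, SE 0.64), and thrombospondin (Thbs1) rose from 134 to 363 FPKM (log2 fold 1.44, SE 0.42, q = 0.000839). Both collagen chains had a more negative stage difference in iKO than in control cells, -1.87 (SE 0.44, z = -4.26) for Col4a1 and -1.66 (SE 0.43, z = -3.87) for Col4a2. Itga6, the integrin gene commonly used to sort basal cells, had 96.2 FPKM in anagen and 78.3 FPKM in second telogen (log2 fold -0.30, SE 0.32, q = 0.373). Its partner Itgb4 had 106 FPKM in anagen and 118 FPKM in second telogen (log2 fold 0.15, SE 0.33, q = 0.695).

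Markers of other skin cells moved in the same comparison. Of 22 tested fibroblast genes, 8 were lower and 6 were higher, and the summed level of 23 genes went from 567 to 676 FPKM. Col3a1, a fibroblast collagen, fell from 14 to 0.327 FPKM (log2 fold -5.42, SE 0.50). Decorin (Dcn) fell from 14 to 0.363 FPKM (log2 fold -5.27, SE 0.58). Twist2 is listed at 0 in second telogen. Col6a1, Col6a2, Fbln1 and Mmp2 were among the 6 higher genes, with log2 folds of 1.06, 1.20, 0.99 and 0.75. Of 8 tested smooth muscle and adipocyte genes, 6 were lower and 0 were higher. The summed level of this list, which includes Myl9 and Tagln, went from 242 to 43.9 FPKM. Acta2, of smooth muscle and dermal sheath, fell from 10.2 to 0.192 FPKM (log2 fold -5.73, SE 0.62). Fabp4, of adipocytes and capillaries, fell from 18.7 to 0.246 FPKM (log2 fold -6.25, SE 0.82, q = 0.0157). Of 12 tested endothelial and pericyte genes, 7 were lower and 0 were higher, with sums of 69.6 and 52.8 FPKM. Pecam1 was lower, from 1.13 to 0.0583 FPKM, and Cdh5 and Emcn are listed at 0 in second telogen. Of 4 tested erythroid genes, 3 were lower, with sums of 16.7 and 1.66 FPKM. The part of such cells in the results for Col4a1, Col4a2, Myl9 and Tagln was not tested.

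Lists of further cell types moved in both directions, and their counts stand against the 33.2% of all tested genes that were called. Of 11 tested melanocyte genes, 1 was higher and 1 was lower. The higher one was Mitf, from 2.03 to 17.2 FPKM (log2 fold 3.08, SE 0.33), whereas the pigment enzyme gene Dct had 12.9 FPKM in anagen and 9.24 FPKM in second telogen (log2 fold -0.49, SE 0.31, q = 0.108). Of 10 tested Schwann cell and nerve genes, 2 were higher and 3 were lower. Of 6 tested dermal papilla genes, 3 were higher and 1 was lower, at summed levels of 6.94 and 19 FPKM, with Sox2 at 0 in second telogen. Of 5 tested skeletal muscle genes, 1 was lower, and the sums were 5.06 and 2.46 FPKM.

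Antigen presentation genes were higher in second telogen. Of 17 tested, 15 were higher and 0 were lower, with a median of 1.04. Cd74, the invariant chain of class II molecules, rose from 17.5 to 85.2 FPKM (log2 fold 2.28, SE 0.18). The class II gene H2-Aa rose from 3.91 to 20.6 FPKM (log2 fold 2.40, SE 0.34). Another class II gene, H2-Eb1, rose from 3.41 to 14 FPKM (log2 fold 2.04, SE 0.35). Nlrc5, the activator of class I genes, rose from 2.11 to 8.24 FPKM (log2 fold 1.96, SE 0.32). Tap1, a peptide transporter, had 30.6 FPKM in anagen and 34.8 FPKM in second telogen (log2 fold 0.19, SE 0.29, q = 0.541). Immune cell markers moved with them. Of 13 tested, 6 were higher and 1, Lyz2, was lower, and the summed level of 19 genes, Cd74 included, was 29.1 FPKM in anagen and 108 FPKM in second telogen. Cd207, the marker of Langerhans cells, rose from 0.433 to 4.35 FPKM (log2 fold 3.33, SE 0.58). The T cell gene Cd3e rose from 0.321 to 1.25 FPKM (log2 fold 1.97, SE 0.64, q = 0.0098), and Ptprc, the gene of CD45, rose from 0.141 to 0.585 FPKM (log2 fold 2.05, SE 0.64). Their part in the class II result was not tested. Of 17 tested interferon response genes, 7 were higher and 1 was lower, with Irf1 from 7.78 to 33.2 FPKM (log2 fold 2.10, SE 0.32) and Usp18 from 1.38 to 9.10 FPKM (log2 fold 2.72, SE 0.42) among the higher and Ifit2 the lower one.

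Defence genes of keratinocytes gave 6 higher and 3 lower calls among 19 tested. The largest finite fold was 9.81 among the lower genes and 7.11 among the higher genes. The summed level of the 26 genes went from 5696 FPKM in iKO anagen to 2030 FPKM in iKO second telogen. Ccl27a, a chemokine of keratinocytes, rose from 62.6 to 445 FPKM (log2 fold 2.83, SE 0.59, q = 0.0191). Defb6, a defensin, rose from 187 to 427 FPKM (log2 fold 1.19, SE 0.11) and was more positive in iKO than in control cells by 1.06 (SE 0.16, z = 6.62). Among 18 tested heat shock genes, 5 were higher and 6 were lower. Hspb8 rose from 63 to 256 FPKM (log2 fold 2.02, SE 0.26). Dnaja1, a cochaperone gene, fell from 128 to 42.4 FPKM (log2 fold -1.60, SE 0.32, q = 0.0068) but went from 32.7 to 295 FPKM in the control pair. Hspa1a and Hspa1b, near-identical genes whose reads may be shared, had log2 folds of -1.24 and -1.18.

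Ribosome biogenesis genes fell while Myc rose. Of 30 tested genes of nucleolus and MYC targets, 19 were lower and 2, Myc and Odc1, were higher, with a median of -0.68. Nme1, a nucleoside diphosphate kinase, fell from 69 to 20.7 FPKM (log2 fold -1.74, SE 0.25). Rrs1, a ribosome assembly factor, fell from 26.8 to 6.98 FPKM (log2 fold -1.94, SE 0.28). Srm, which makes spermidine, fell from 58.6 to 20.5 FPKM (log2 fold -1.52, SE 0.25). Odc1, which makes the spermidine precursor putrescine, rose from 20.8 to 49.7 FPKM (log2 fold 1.26, SE 0.26). In the control pair 5 of 30 genes were lower and 2 were higher, with a median of -0.16. Srm was the 1 gene of the list whose stage difference differed, by -1.44 (SE 0.35, z = -4.08). An E-box was found in 8 of 26 windows of this list (30.8%), against 9.70% of windows of tested genes and 7.15% of all windows. The Nme1 window, at chr11:93967976-93968275 (minus strand), holds 1, in capitals, at position -29.
Nme1: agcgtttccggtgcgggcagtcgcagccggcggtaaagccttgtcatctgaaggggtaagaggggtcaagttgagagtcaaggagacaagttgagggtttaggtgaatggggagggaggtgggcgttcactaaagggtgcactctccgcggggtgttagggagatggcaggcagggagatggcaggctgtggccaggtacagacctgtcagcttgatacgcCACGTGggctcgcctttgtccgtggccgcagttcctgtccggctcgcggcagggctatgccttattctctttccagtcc

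Metabolic genes moved in both directions. Of 29 tested glycolysis and hypoxia genes, 9 were higher and 3 were lower. Ndrg1, a hypoxia-responsive gene, rose from 15.1 to 158 FPKM (log2 fold 3.39, SE 0.29). Slc2a3, a glucose transporter gene, rose from 0.800 to 1.97 FPKM (log2 fold 1.30, SE 0.43, q = 0.00156). Egln3, an oxygen-sensing hydroxylase gene, rose from 26.3 to 76.9 FPKM (log2 fold 1.55, SE 0.26) and went from 32.9 to 12.5 FPKM in the control pair, a difference of 2.95 (SE 0.37, z = 8.01). Car12 fell from 60.3 to 19.1 FPKM (log2 fold -1.66, SE 0.27). Gapdh, a glycolytic enzyme gene, had 272 FPKM in anagen and 248 FPKM in second telogen (log2 fold -0.13, SE 0.30, q = 0.705). Ldha, which makes lactate, had 461 FPKM in anagen and 372 FPKM in second telogen (log2 fold -0.31, SE 0.33, q = 0.361). Of 28 tested sterol and fatty acid genes, 10 were lower and 3 were higher. Idi1, of isoprenoid synthesis, fell from 53.6 to 24.9 FPKM (log2 fold -1.11, SE 0.26). Sqle, of sterol synthesis, fell from 30.8 to 19 FPKM (log2 fold -0.70, SE 0.26, q = 0.00405). Scd1, a fatty acid desaturase gene, rose from 22.4 to 101 FPKM (log2 fold 2.17, SE 0.28) and was more positive in iKO than in control cells by 2.35 (SE 0.39, z = 6.0). Hmgcs1 is listed at 0 in both groups and was not tested.

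Factors of hair lineages gave 4 higher and 4 lower calls among 15 tested. Hoxc13, of the hair matrix, fell from 42 to 17.4 FPKM (log2 fold -1.27, SE 0.25). Dlx3 fell from 12.2 to 4.11 FPKM (log2 fold -1.57, SE 0.31). Dlx1 and Dlx4 were lower too. Foxq1, a forkhead factor of the hair medulla, rose from 1.23 to 3.70 FPKM (log2 fold 1.59, SE 0.38) but went from 2.74 to 1.15 FPKM in the control pair, a difference of 2.84 (SE 0.55, z = 5.18). Ovol1, Gata3 and Prdm1 were the other higher genes.

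The 12 largest rises, taken over genes that reached 1 FPKM in both groups, began with Pde4dip, which encodes an anchoring protein of phosphodiesterases at the centrosome and Golgi. It rose from 4.09 to 496 FPKM (log2 fold 6.92, SE 0.29) and stood at 1081 FPKM in WT second telogen, but at 5.07 in the cKO, 5.97 in first telogen, 5.32 in Het anagen and 3.44 in anagen II. The large value was thus shared by iKO and WT second telogen and absent from the cKO and first telogen. The gene lies on chromosome 3, from 97493750 to 97692630 of mm9. Pyy, the gene of the hormone peptide YY, rose from 1.51 to 76.9 FPKM (log2 fold 5.67, SE 0.37). Its value was 0.848 FPKM in WT second telogen and 8.23 in the cKO, and it is listed at 0 in first telogen and anagen II. Its stage difference was more positive in iKO than in control cells by 4.85 (SE 0.76, z = 6.34). Aspn came next. Fosb, Atf3, Nr4a1, Csrnp1, Sncg, Mt1, Ctgf and the short noncoding models Rmrp and Mir27a completed the 12, with log2 folds between 4.21 and 4.82. Mt1, a metallothionein that binds zinc, rose from 117 to 2169.8 FPKM (log2 fold 4.22, SE 0.19).

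The largest fall was that of Gnmt, a methyltransferase of glycine. It fell from 352 to 2.16 FPKM (log2 fold -7.35, SE 0.39), which is 163-fold, and stood at 249.3 FPKM in Het anagen, 422 in anagen II, 5.95 in WT second telogen, 1.58 in the cKO and 9.07 in first telogen. All 3 anagen values were thus 249.3 FPKM or more and all 4 telogen values 9.07 FPKM or less. It lies on chromosome 17, from 46862612 to 46866114 of mm9. Gjb2 came second and Tagln after it. Ucp2, a mitochondrial carrier, fell from 444 to 27.7 FPKM (log2 fold -4.0, SE 0.37), and its telogen values were 26.3, 59.6 and 54.5 FPKM in WT, cKO and first telogen cells. Fscn1, which bundles actin, fell from 47.1 to 2.63 FPKM (log2 fold -4.16, SE 0.31). Slc7a8, an amino acid transporter, fell from 62.7 to 5.31 FPKM (log2 fold -3.56, SE 0.30). Krt71, Pla2g7, Medag, Dhrs9 and Gsdma3 were also among the 12 lowest, with log2 folds between -4.29 and -3.55.

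Of the 5 most abundant genes on the higher side, Fos was one and 3 were short RNA models, Mir27a, Mir3074-2 and Mir6236, whose FPKM is uncertain because reads rarely fit in them. The fifth was the ribosomal protein gene Rps14, which rose from 2296 to 3853 FPKM (log2 fold 0.75, SE 0.26, q = 0.0333). On the lower side, Krt17 was joined by Myl6, a myosin light chain gene that fell from 1524 to 761 FPKM (log2 fold -1.0, SE 0.23). Dbi, which binds acyl-CoA, fell from 1174 to 267 FPKM (log2 fold -2.14, SE 0.30), and Mif, a cytokine gene, fell from 911 to 567 FPKM (log2 fold -0.68, SE 0.18, q = 0.00758). S100a14 fell from 776 to 304 FPKM (log2 fold -1.35, SE 0.33). Of genes listed at 0 in one group, Krtap8-1, a hair keratin-associated protein gene, had 14 FPKM in anagen and 0 in second telogen, in WT second telogen and in the cKO. The other 5 named by the rule were short RNA models. Mir19a, Mir20a and Mirlet7f-1 are listed at 0 in iKO anagen, and Mir7090 and Snord73a in iKO second telogen, and no fold is given for them.

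**Figure D4:**
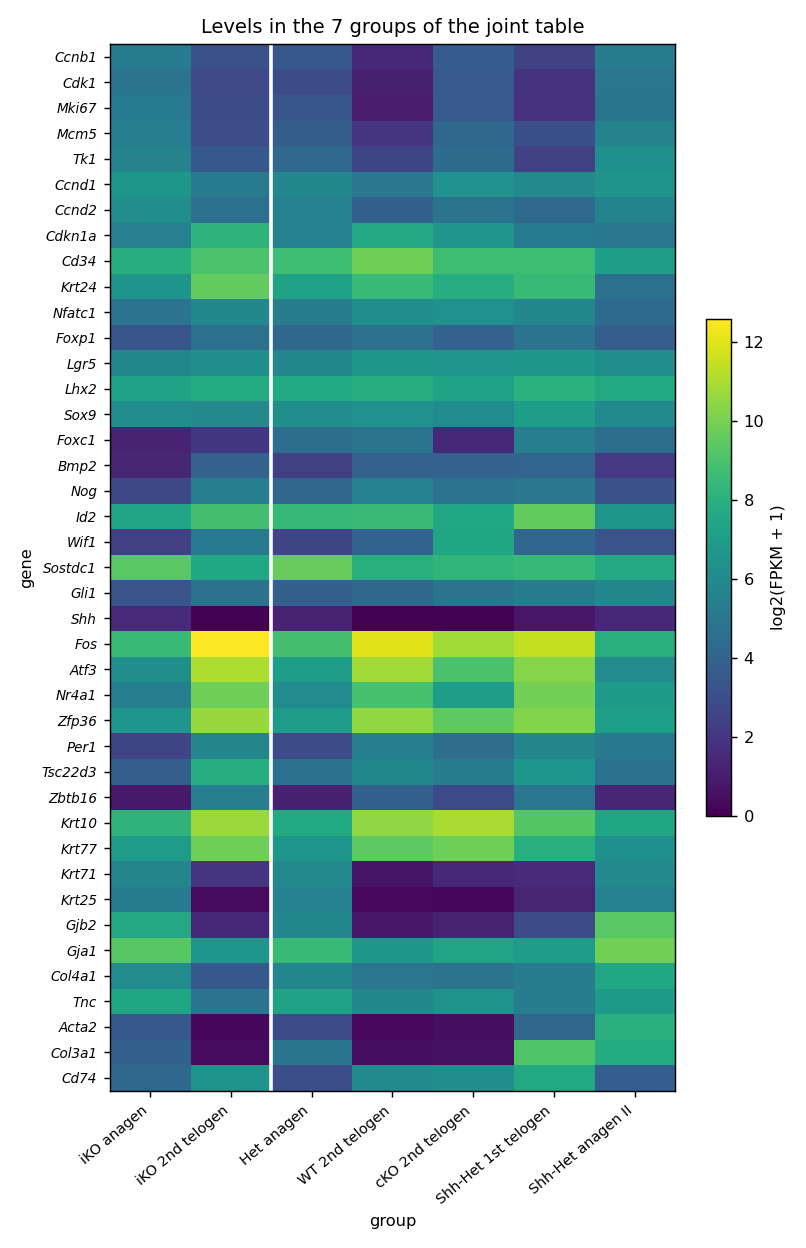
Levels of 41 genes, as log2(FPKM + 1) in colour, in the 7 groups of the joint table (x axis), with the compared iKO groups to the left of the white line; each cell is 1 pooled value. The genes were picked after their values were seen; immediate early genes are bright in all 4 telogen groups and Foxc1 is dark in iKO and cKO columns.

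The stage difference of control cells was smaller in number of calls. Between WT second telogen and Het anagen, 3539 of 13932 tested genes were called (25.4%), 1884 higher in telogen (13.5%) and 1655 lower (11.9%). Among 13491 genes tested in both pairs, 1404 were higher in telogen in both, which is 59.3% of the iKO calls and 76.6% of the control calls in that direction. Lower in both were 1113, which is 52.5% of the iKO calls and 70.1% of the control calls. Opposite calls numbered 30 genes higher in iKO and lower in control telogen and 6 the other way. Across 13385 genes both log2 folds had a Spearman correlation of 0.75, a description over genes that share libraries. The unreplicated Shh-Het libraries gave a further view without a test. Of the 2433 genes higher in iKO second telogen, 2087 (85.8%) had a larger value in first telogen than in anagen II, against 55.9% of all tested genes. Of the 2139 lower genes, 1786 (83.5%) had a smaller value in first telogen, against 43.6%.

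A call in one pair and not in the other does not show a difference, so the test of the difference itself was used. Of its 171 genes, 110 had a more positive stage difference in iKO cells and 61 a more negative one. Of the 171, 52 were called in both pairs in the same direction, 53 in iKO cells only, 32 in control cells only, 30 in opposite directions and 4 in neither. With a more cautious SE taken from the p-value the 171 became 46, and with a lower limit on the SE, chosen after seeing the data, they became 146. Id3, Defb6, Krtdap, Mt4, Lpl, Gsdma3, Atp5k and Mir27a were no longer called under that limit. With the more cautious SE 34 of the 42 genes named for this difference were no longer called, and Atp2a3, Brd3, Dnaja1, Egln3, Foxq1, Myl9, Scd1 and Tnfrsf11b were the 8 that kept the call. The immediate early, mitosis and replication lists gave 1, 0 and 0 of these genes.

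Genes with a more positive stage difference in iKO cells included several named above. Rcan3, a relative of calcineurin inhibitors, rose from 4.80 to 28.7 FPKM (log2 fold 2.58, SE 0.25) and stood between 4.84 and 6.39 FPKM in the other 5 groups, a difference of 2.65 (SE 0.41, z = 6.42). Mcam, an adhesion molecule, fell from 24.4 to 12.6 FPKM (log2 fold -0.96, SE 0.28), less than in control cells, where it went from 25.7 to 1.74 FPKM. Atp2a3, a calcium pump gene, rose from 1.90 to 3.05 FPKM (log2 fold 0.68, SE 0.38, q = 0.04), while control cells went from 25.9 to 5.58 FPKM. On the other side, Dnaja1 had a difference of -4.77 (SE 0.42, z = -11.36). Myl9, a myosin light chain of contractile cells, fell from 96.7 to 14.1 FPKM (log2 fold -2.77, SE 0.28) and was 50.1 and 59.5 FPKM in Het anagen and WT second telogen, a difference of -3.02 (SE 0.37, z = -8.13). Tnfrsf11b, the gene of osteoprotegerin, fell from 13.1 to 8.81 FPKM (log2 fold -0.57, SE 0.29, q = 0.0377) but went from 13.9 to 57.3 FPKM in control cells, a difference of -2.62 (SE 0.41, z = -6.45). Brd3, a bromodomain protein gene, fell from 35.4 to 18.2 FPKM (log2 fold -0.96, SE 0.23, q = 0.00783) and went from 20.4 to 45.3 FPKM in control cells, a difference of -2.11 (SE 0.33, z = -6.45). These control values differ in strain, sex and age as well as in Foxc1, which cannot be told apart.

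**Figure D5:**
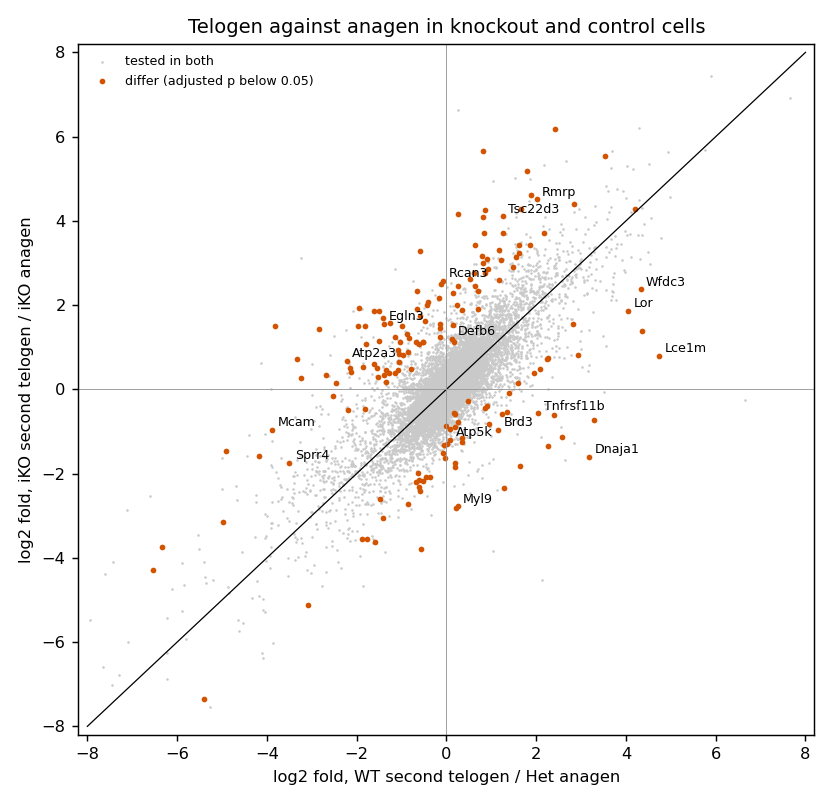
Log2 fold of telogen over anagen in control cells (WT second telogen over Het anagen, x axis) against iKO cells (y axis) for genes tested in both; orange points are the genes whose difference had an adjusted p below 0.05, labelled genes are those of the rule for the difference, and 5 genes lie outside the axes. Most points follow the line of equal folds, and Dnaja1, Tnfrsf11b and Brd3 lie below 0 on the y axis and above 0 on the x axis.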

How the data were processed

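The authors aligned reads with TopHat and ran Cufflinks and Cuffdiff on mouse build mm9, per the submitters' processing notes, which give no versions. The deposited joint table holds FPKM for each of 7 groups, with the libraries of a group pooled by the authors, and 21 pairwise comparisons. For each comparison the authors deposited a log2 fold without a pseudocount, a test statistic (a score signed like the fold), a p-value and a q-value. The deposited q-values match Benjamini-Hochberg adjustment over all 21 comparisons to within 5.28e-07, and the smallest deposited p is 5e-05. A further 2 deposited tables do not hold iKO second telogen and were not used. No table used here gives counts or a value per library, so the depth of each library and the precision it gives are unknown.

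Python 3.11.15, pandas 2.3.3, numpy 2.4.6, scipy 1.17.1 and matplotlib 3.10.9 were used. Signs were turned so that a positive fold is second telogen over anagen. The SE was obtained as log2 fold over the authors' test statistic. Among genes with finite values in both pairs, 88 had a statistic with a normal p below 0.05 in the iKO pair but a deposited p that was not. Other mismatches between statistic and deposited p were not counted, so the SE and the z built on it are approximate. The difference between the iKO and the control stage fold was tested with both SEs (two-sided normal test, Benjamini-Hochberg adjustment, 0.05). Genes needed finite folds and SEs in both pairs, and those with such a mismatch in either pair were left out. The test was also run on simulated data with normal noise of these same SEs. That run cannot show whether the SEs themselves are right. List medians are of log2 ratios with 1 FPKM added. Motifs were searched in RefSeq promoter windows of GRCm38.p6, matched to genes by symbol, and no coordinate of that build was joined to the mm9 table.

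The members of the comparison, the 46 gene lists (909 of 917 distinct genes had a row) and the rules were chosen with earlier results of these data known. Genes were named by a rule: Foxc1, a short set of stem cell genes, the 12 highest and 12 lowest folds of genes reaching 1 FPKM in both groups, the 5 most abundant and 3 near 0 per direction, up to 4 called per direction and 3 not called per list, and the 8 highest and 8 lowest z of the difference. Alternatives were other adjustments and thresholds of q, FPKM minimums, pseudocounts of 0.1 and 5, centring, and other SEs. Nothing in the labels says more than 1 mouse per library, and p-values measure the spread between these samples only. Results for a few items are not reported here.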

Additional observations from a re-analysis of the deposited data

Results flagged for a closer look

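The results here are named genes whose stage difference (second telogen over anagen, log2) differed between iKO cells and control cells (WT second telogen over Het anagen) at an adjusted p below 0.05. The control groups differ from the iKO groups in strain, sex, age and driver as well as in Foxc1, which cannot be told apart, and the values are given without an explanation. Of the 42 genes, 8 kept the call with the more cautious SE taken from the p-value (Atp2a3, Brd3, Dnaja1, Egln3, Foxq1, Myl9, Scd1 and Tnfrsf11b), and 34 did not.

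Stage differences that were more positive in iKO cells, as iKO minus control, were found for several regulators. Secreted signals and their targets were Pyy with 4.85, Wif1 with 1.58, Nog with 1.41, Id2 with 1.38 and Id3 with 1.2. Glucocorticoid-responsive genes were Tsc22d3 with 2.85, Zbtb16 with 2.01 and Klf9 with 1.62. Other transcription factors were Foxq1 with 2.84 and Nr4a1 with 1.56. Enzymes and calcium genes were Egln3 with 2.95, Atp2a3 with 2.9, Rcan3 with 2.65, Lpl with 2.39 and Scd1 with 2.35. Of these, Foxq1, Egln3 and Atp2a3 were called in opposite directions in both pairs. Lpl was not called in the iKO pair.

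Keratinocyte and surface genes on the same side were Mcam with 2.93, Krt71 with 2.24, Krt24 with 1.85, Sprr4 with 1.75, Defb6 with 1.06 and Mt4 with 0.94. The fall of Mcam, Krt71 and Sprr4 was smaller in iKO than in control cells, whereas Krt24 rose in both. The pigment gene Dct had 1.71 and fell in control cells only, its values in iKO cells being 12.9 FPKM in anagen and 9.24 FPKM in second telogen (log2 fold -0.49, SE 0.31, q = 0.108). The short noncoding models Rmrp and Mir27a had 2.5 and 0.08. The SE of the fold of Mir27a in the iKO pair was 0.01, and short models carry uncertain FPKM.

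Stage differences that were more negative in iKO cells were led by Dnaja1 with -4.77, Lce1m with -3.93, Myl9 with -3.02 and Tnfrsf11b with -2.62. Differentiation and defence genes were Lor with -2.17, Wfdc3 with -1.95 and Krtdap with -1.27, each of which rose less in iKO than in control cells. Matrix genes were Col4a1 with -1.87, Col4a2 with -1.66, Mmp2 with -1.52 and Htra1 with -1.45. Genes that fell further in iKO cells were Dhrs9 with -2.03, Gnmt with -1.96, Gsdma3 with -1.78 and Slc7a8 with -1.69. The remaining values were -2.11 for Brd3, -1.44 for Srm and -1.28 for Atp5k, all of which fell in iKO cells. Dnaja1, Tnfrsf11b and Brd3 rose in control cells.

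The summed FPKM of 14 smooth muscle and adipocyte genes, Myl9 being 1 of them, was 242 in iKO anagen and 43.9 in iKO second telogen. It was 148 in Het anagen and 109 in WT second telogen. For 16 endothelial and pericyte genes, Mcam included, the sums were 69.6, 52.8, 79.9 and 80.6 FPKM in the same order. The part of such cells in the results for Myl9, Col4a1 and Col4a2 was not tested.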

How the results depend on the processing

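The 4572 calls of the iKO pair became 4862 with Benjamini-Hochberg adjustment over that comparison alone, 3229 at q below 0.01 and 3643 over genes reaching 1 FPKM in both groups, and the 3539 control calls ranged from 2413 to 3539. Calls of at least 2-fold fell from 2469 to 1588 when 1 FPKM was added before the ratio, which by construction shrinks the folds of low genes. The 171 genes whose stage difference differed became 95 at an adjusted p below 0.01 and 46 with a more cautious SE taken from the p-value, which is inflated for large folds because the deposited p stops at 5e-05. An SE held at or above the 25th percentile, an alternative chosen after seeing the data, gave 146, all among the 171. Atp5k, Defb6, Id3, Krtdap, Mir27a, Mt4, Gsdma3 and Lpl were the named genes lost under it. Under the more cautious SE 34 of the 42 genes named for this difference lost the call, among them Pyy, Tsc22d3, Nog, Wif1, Zbtb16, Klf9, Lor, Lce1m and Col4a1, and 8 kept it (Atp2a3, Brd3, Dnaja1, Egln3, Foxq1, Myl9, Scd1 and Tnfrsf11b). The alternatives applied to single named genes change the adjustment, the threshold or the SE and keep the fold, so no direction could reverse. The median of the keratinocyte defence and alarm list changed sign, from -0.03 to 0.43 over genes reaching 1 FPKM in at least 1 group, and no other list median did. At q below 0.01, 34 of 409 named genes lost their call, among them Shh, Tbx1, Fzd7, Fzd8, Fzd9, Wnt16, Rps14, Atp2a3, Sprr4 and Tnfrsf11b. List medians above 0 numbered 28 of 46, and 28 or 29 under each alternative.

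No paired analysis was possible because the deposited values are pooled over the libraries of a group. Leaving out a library could not be run for the same reason, so the spread between mice, and any part of a single mouse in a result, cannot be read. Unknown depth limits low genes most, and a listed 0 gives no upper limit.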
